A study of Mus musculus with 2 samples.

Results

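The 89 genes described here encode cytochrome P450 enzymes measured in mouse nasal mucosa, out of 22180 genes that an array row named alone. They were taken by symbol, as every gene called Cyp followed by a family number, a subfamily letter and a gene number, such as Cyp2g1. For a gene with several rows, the row with the highest mean signal of both arrays was used. The tissue came from C57BL/6 mice aged 4 to 6 weeks, labelled day 3, with papain in one group and phosphate-buffered saline (PBS) in the other. Papain is a plant cysteine protease used to provoke allergic airway inflammation, and PBS is its vehicle. According to the design text 4 samples went into a combined specimen, whether per array or not is unstated, and each group is 1 Affymetrix Mouse Gene 2.0 ST array. With 1 array per group no test was possible, no difference has a replicate check, and the spread between mice is unknown. The study title concerns interleukin-33, innate immunity and the epithelial barrier after protease exposure.

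Cytochrome P450 enzymes are heme proteins, most of them in the endoplasmic reticulum, that insert an oxygen atom into a substrate with electrons from a reductase. Families 1 to 3 mainly oxidise foreign chemicals, family 4 hydroxylates fatty acids, and the higher numbered families mostly act on sterols, steroid hormones, retinoic acid and vitamin D. Olfactory mucosa is among the richest sites of P450 enzymes outside the liver. There they lie in sustentacular cells, which support the olfactory neurons, and in Bowman glands, and they clear odorants and activate some inhaled toxicants.

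All signals are log2 values of the array, and a ratio is the papain value minus the PBS value on that scale, or its fold. Probes differ between genes, so signals are not compared between genes as amounts of transcript. A background level was read from 29 genes of other organs, whose signals had a median of 4.95 and a 95 percentile of 6.40 over both arrays. Of the 89 P450 genes, 23 had both signals above that 95 percentile, 18 had a lower signal between the median and the 95 percentile, and 48 had a signal under the median, where a ratio is no measure of transcript. A floor was set at the median of all named genes, 6.29, which the higher signal had to reach. The floor was reached by 30 P450 genes, or 33.7%, against 52.8% of all named genes. The mean signal was at least 12 in 2 P450 genes, between 9 and 12 in 6, and below 9 in the other 81. The tissue did hold olfactory mucosa by its markers, with the olfactory neuron gene Omp at 9.87 after papain and 9.94 after PBS. All 10 measured sustentacular markers were above the floor. Of the 89 P450 genes, only 23 cleared the background 95 percentile in both arrays, and bulk signals do not show which cells held them. Across the 89 genes the arrays correlated with r = 0.984, a description of this pair of arrays over genes that are not independent.

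**Figure D1:**
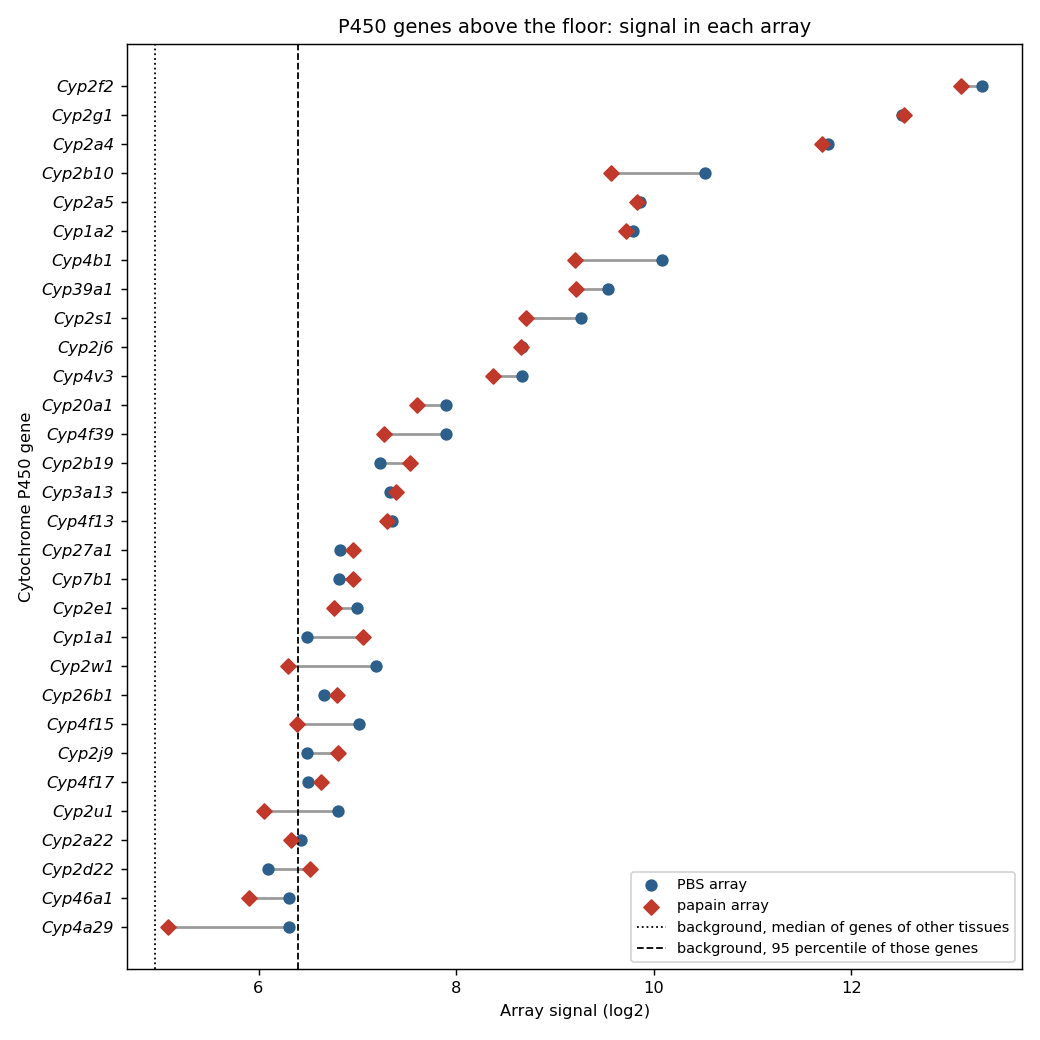
Array signal (log2, horizontal axis) of the 30 P450 genes above the floor, in order of mean signal, with diamonds for the papain array and circles for the PBS array. Each point is 1 array, and the dotted and dashed lines mark the background median of 4.95 and 95 percentile of 6.40. The points of Cyp2g1, Cyp2a4, Cyp2a5, Cyp1a2 and Cyp2j6 nearly coincide, while Cyp2b10, Cyp4b1, Cyp2w1 and Cyp4a29 are lower in the papain array.

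Some of the enzymes known from olfactory mucosa, Cyp2g1, Cyp2a5, Cyp2a4 and Cyp1a2, had nearly the same signal in both arrays. Cyp2g1, a P450 found almost only in olfactory mucosa, read 12.53 after papain and 12.51 after PBS. Cyp2a5, which hydroxylates coumarin and activates nasal toxicants, read 9.83 and 9.86. Its close copy Cyp2a4, a steroid hydroxylase, read 11.70 and 11.76. Cyp1a2, an oxidase of aromatic amines with high nasal levels, read 9.72 and 9.79. The ratios of these genes lay between -0.07 and 0.01. Cyp2f2, which activates naphthalene in airway and olfactory epithelium, read 13.11 and 13.32, a ratio of -0.20, and its second row gave -0.35 from 7.13 and 7.48. Of the other genes named whatever their values, Cyp2b10, Cyp4b1 and Cyp2s1 were lower in the papain array, at -0.95, -0.88 and -0.55. Cyp26b1 had a ratio of 0.14. For scale, genes above the floor with repeated rows had an SD of 0.24 for 1 row's ratio, over 225 genes, which covers probe set error and not mice.

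Cyp2a4 and Cyp2a5 lie in the same gene cluster and are such close copies that their probes may share signal. The RefSeq promoter windows, 250 bases before the annotated start (GRCm38.p6), are shown for this pair because they are nearly the same, and for Cyp1a2 because it holds a paired motif of nuclear factor I (NFI), a factor family known from work on nasal P450 promoters. Capitals mark the short NFI motif TTGGC and the paired core, TGGC and GCCA with 5 bases between, on either strand, the core GCGTG bound by the aryl hydrocarbon receptor on either strand, and TATAAA on the gene's strand. Where marks overlap or meet they run together.
Cyp2a4: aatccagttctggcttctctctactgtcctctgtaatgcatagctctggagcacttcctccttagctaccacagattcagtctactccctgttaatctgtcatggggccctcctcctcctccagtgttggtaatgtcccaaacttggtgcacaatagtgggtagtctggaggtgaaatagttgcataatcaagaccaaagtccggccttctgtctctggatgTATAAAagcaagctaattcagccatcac
Cyp2a5: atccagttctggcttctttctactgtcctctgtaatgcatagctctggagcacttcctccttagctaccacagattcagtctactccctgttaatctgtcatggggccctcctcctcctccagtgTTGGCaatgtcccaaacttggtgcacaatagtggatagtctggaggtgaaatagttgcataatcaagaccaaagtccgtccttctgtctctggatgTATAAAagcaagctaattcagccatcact
Cyp1a2: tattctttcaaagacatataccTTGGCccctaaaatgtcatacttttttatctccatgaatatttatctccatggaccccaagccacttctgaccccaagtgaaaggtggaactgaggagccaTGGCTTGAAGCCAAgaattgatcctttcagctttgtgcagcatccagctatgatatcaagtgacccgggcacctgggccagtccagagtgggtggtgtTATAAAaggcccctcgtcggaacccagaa
The first lies at chr7:26306942-26307191 and the second at chr7:26835089-26835338, both on the plus strand, and the third at chr9:57683656-57683905 on the minus strand. The Cyp2a4 and Cyp2a5 windows shared 245 of 250 bases, or 98.0%, in a global alignment. They differed by 4 substitutions and 2 unpaired end bases, 1 in each window. The substitutions were C19T, T131C, G161A and G205T, with Cyp2a4 first and positions counted from 1 at the 5′ end of its window. The change T131C gives Cyp2a5 the motif TTGGC that the Cyp2a4 window lacks. Both windows hold TATAAA. The Cyp1a2 window holds TATAAA, 2 short NFI motifs and 1 paired core, and the Cyp2f2 window holds none of these motifs. Cyp2g1 has no entry in the promoter table. A match is a description of letters and not evidence of binding.

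Over the 77 promoter entries of 69 P450 genes, TTGGC on either strand was present in 62.3%, against 41.5% of all 32851 entries of the same length. The paired core was present in 2 of the 77, or 2.60%, against 0.703% of all entries, in Cyp1a2 and in 1 entry of Cyp11a1, a gene under the floor. TATAAA was present in 23.4% against 7.59%, and GCGTG in 19.5% against 28.2%. Subfamily copies share sequence, so these entries are not independent.

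Several P450 genes had lower signals in the papain array, and those above the floor lower by at least 1.5-fold were all of families 2 and 4. These families held most of the P450 genes above the floor, 14 and 7 of the 30. Among the 30 above the floor, 1 was lower by 2-fold or more and 0 were higher by that much, where 0.393% and 1.59% of the 11708 named genes above the floor were. At 1.5-fold, 7 of the 30, or 23.3%, were lower and 0 were higher, where 4.35% and 3.41% of genes above the floor were. The 7 were Cyp4a29, Cyp2b10, Cyp2w1, Cyp4b1, Cyp2u1, Cyp4f15 and Cyp4f39. Cyp4a29, the gene past 2-fold, and Cyp2u1 reached the floor through their PBS signals alone, so their ratios had to be below 0. Their papain signals were under the background 95 percentile in 4 of them, so those folds are of uncertain size. Of the 23 P450 genes with both signals above that percentile, 3 were at least 1.5-fold lower, against 3.29% of the 10085 genes that met the same condition. In a bulk specimen, fewer cells of a type and less RNA per cell cannot be told apart.

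Cyp2b10, the xenobiotic oxidase induced through the constitutive androstane receptor, read 9.57 after papain and 10.52 after PBS. This is a PBS over papain ratio of 1.94, the largest difference among P450 genes with both signals above the background 95 percentile. Cyp4b1, an airway enzyme that hydroxylates fatty acids and activates plant furans, read 9.20 and 10.08, a PBS over papain ratio of 1.84. Both genes were bright in both arrays, far above background. Cyp2s1, an epithelial P450 of retinoid and lipid metabolism, read 8.71 and 9.26, a ratio of -0.55 that missed the 1.5-fold threshold. Cyp4f39, an omega-hydroxylase of very long fatty acids in the lipids of the skin barrier, read 7.27 and 7.90, a ratio of -0.62.

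The other genes of the 7 were dim in the papain array. Cyp2w1, a P450 known mainly from fetal gut and colon tumours, read 6.30 after papain and 7.19 after PBS. Cyp2u1, a fatty acid hydroxylase, read 6.06 and 6.80, and Cyp4f15, a hydroxylase of fatty acids and eicosanoids, read 6.39 and 7.02. Cyp4a29 was the 1 gene past 2-fold, at 5.08 after papain and 6.31 after PBS, a PBS over papain ratio of 2.36. Its papain signal was little above the background median and its PBS signal passed the floor of 6.29 by a narrow margin.

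The promoter windows of the pair of bright genes with lower papain signals are shown to set them beside the windows above, with the same capitals.
Cyp2b10: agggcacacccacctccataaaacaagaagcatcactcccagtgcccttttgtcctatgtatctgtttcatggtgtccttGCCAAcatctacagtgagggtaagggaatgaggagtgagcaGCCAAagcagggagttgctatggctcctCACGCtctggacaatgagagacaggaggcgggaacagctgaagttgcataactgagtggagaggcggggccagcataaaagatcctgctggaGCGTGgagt
Cyp4b1: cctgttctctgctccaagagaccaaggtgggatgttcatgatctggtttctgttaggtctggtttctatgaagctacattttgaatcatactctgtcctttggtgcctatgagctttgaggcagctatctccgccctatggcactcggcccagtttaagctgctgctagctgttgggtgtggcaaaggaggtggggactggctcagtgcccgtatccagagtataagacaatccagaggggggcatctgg
The Cyp2b10 window lies at chr7:25897408-25897657 on the plus strand and holds 2 short NFI motifs and 2 GCGTG cores, with no TATAAA. The Cyp4b1 window lies at chr4:115647722-115647971 on the minus strand and holds none of the motifs.

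**Figure D2:**
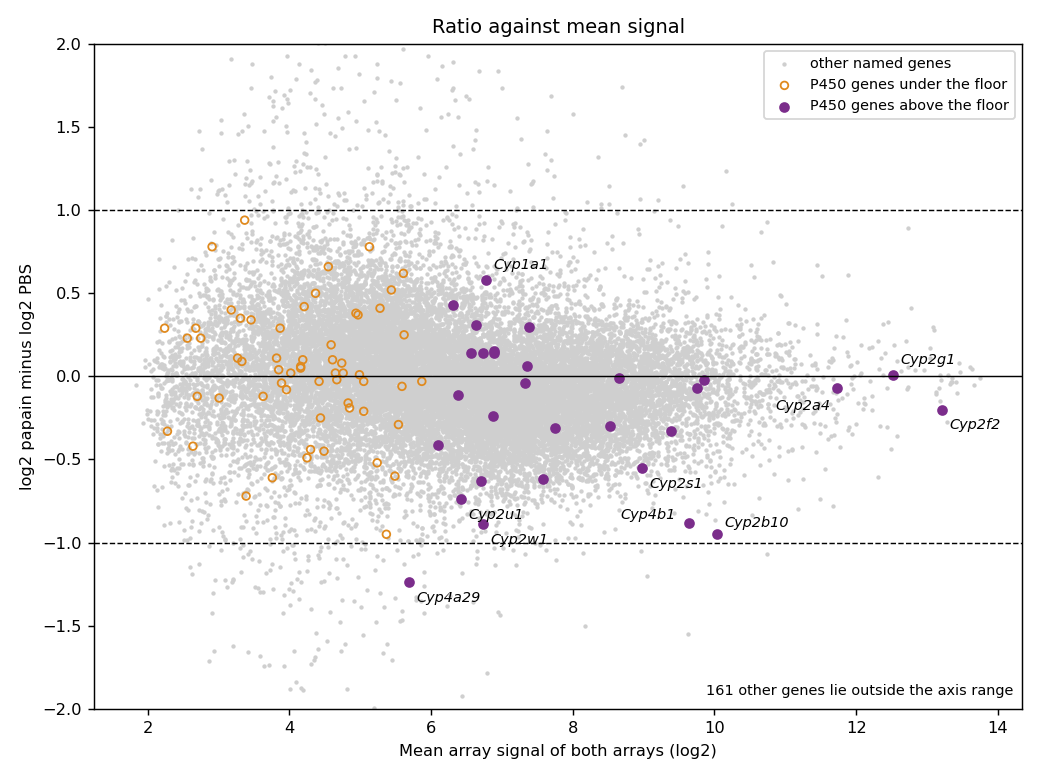
Ratio (log2 papain minus log2 PBS, vertical axis) against mean signal (log2, horizontal axis) for all named genes in grey, with filled points for the 30 P450 genes above the floor and open circles for the 59 under it. Dashed lines mark 2-fold, and 161 other genes lie outside the axis range. Cyp2g1, Cyp2a4 and Cyp2f2 sit close to 0 at the bright end, and Cyp4a29 is the only filled point beyond a dashed line.

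The median of the whole group was close to that of all genes. The median ratio of the 30 P450 genes above the floor was -0.09, beside -0.10 for all 11708 genes there, and that of all 89 was -0.01, beside -0.03 for all named genes. Ratios below 0 were found in 20 of the 30, or 66.7%, beside 64.1% of genes above the floor, and in 45 of all 89, beside 54.4% of all named genes. Among the 30, Cyp4a29, Cyp2u1 and Cyp46a1 reached the floor through PBS alone and Cyp2d22 through papain alone. The floor thus fixed the signs of their ratios. Among the brightest genes the medians were further apart. With the floor raised to the 75 percentile of named genes, 7.64, 13 P450 genes were left with a median of -0.30, beside -0.09 for the 6038 genes there. Of these 13, 12 had ratios below 0, beside 63.8% of those genes, and the exception was Cyp2g1. Among the 12, Cyp2j6, Cyp2a5, Cyp2a4 and Cyp1a2 had ratios between -0.07 and -0.01, nearly the same in both arrays. The ratios of Cyp2j6 and Cyp2a5 were above 0 after centring or loess. At least 1.5-fold lower were 3 of the 13, Cyp2b10, Cyp4b1 and Cyp4f39, beside 3.96%. Cyp4f39 and Cyp20a1 reached the raised floor through their PBS signals alone, so their ratios had to be below 0.

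Family 4, the fatty acid hydroxylases, held 4 of the 7 lower genes. Of its 15 measured members, 7 were above the floor, Cyp4a29 through its PBS signal alone, and 6 of these had ratios below 0 with a median of -0.62. Beside them stand 4.35% of all genes above the floor at least 1.5-fold lower, 64.1% below 0 and a median of -0.10. The median over all 15 was -0.04, because the members under the floor lay on both sides of 0. Beside Cyp4b1, Cyp4a29, Cyp4f39 and Cyp4f15, the bright Cyp4v3, a fatty acid hydroxylase whose human counterpart is mutated in a retinal dystrophy, read 8.37 and 8.67. Cyp4f13 read 7.30 and 7.35, and Cyp4f17 read 6.63 and 6.50, a ratio of 0.14 and the 1 value above 0.

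Cyp4b1 and Cyp4a29 belong to 1 cluster on chromosome 4, in the gene order of RefSeq (GRCm38.p6). Other genes of that cluster, outside the symbol rule because their names end in a letter, were read for comparison after their values had been seen. Cyp4a12b, an omega-hydroxylase, read 10.27 after papain and 11.00 after PBS, and its near-identical neighbour Cyp4a12a read 6.57 and 7.29. Their ratios were -0.73 and -0.72, and their probes may share signal. The remaining genes of the cluster were dim, and among them Cyp4x1 read 5.92 and 5.30, a ratio of 0.62 in the opposite direction with both signals under the background 95 percentile.

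The family 2 cluster of chromosome 7 was uneven along its length. It holds 13 of the 89 genes, 8 of them above the floor, with ratios from -0.95 for Cyp2b10 to 0.66 for Cyp2b13, whose PBS signal of 4.22 was under the background median. Cyp2s1 and Cyp2b10, adjacent in this gene order, had ratios of -0.55 and -0.95. The next genes above the floor, Cyp2a4, Cyp2b19, Cyp2g1, Cyp2a5, Cyp2a22 and Cyp2f2, lay between -0.20 and 0.30. Cyp2b19, an epoxygenase of arachidonic acid in keratinocytes, gave the highest of these at 7.53 after papain and 7.23 after PBS. Within subfamily 2b, Cyp2b10 and Cyp2b19 thus had ratios of opposite sign.

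**Figure D3:**
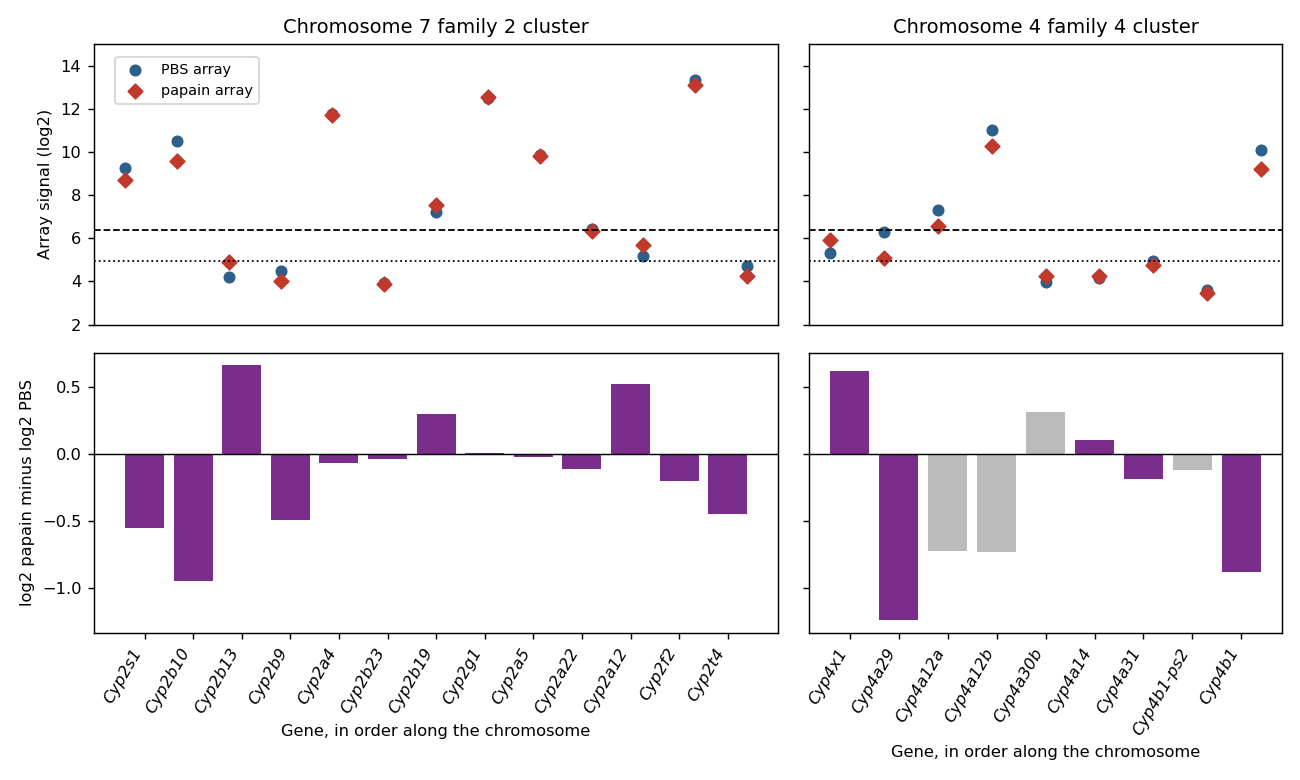
The upper panels give the array signal (log2) in the papain array (diamonds) and the PBS array (circles), and the lower panels the log2 papain minus log2 PBS, for the genes of the chromosome 7 and chromosome 4 clusters in order along the chromosome. Dotted and dashed lines are the background median of 4.95 and 95 percentile of 6.40, and grey bars are Cyp genes outside the symbol rule. Cyp2b10 has -0.95 and Cyp2a4 of the same cluster -0.07, and Cyp4a29, Cyp4a12a, Cyp4a12b and Cyp4b1 lie between -1.24 and -0.72.

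No P450 gene above the floor was 1.5-fold higher in the papain array, and Cyp1a1 came nearest. Cyp1a1, the classical target of the aryl hydrocarbon receptor, read 7.06 after papain and 6.49 after PBS, a 1.49-fold ratio. After quantile normalization, after centring of the ratios or after loess it passed 1.5-fold. Its neighbour Cyp1a2 had a ratio of -0.07, and the related Cyp1b1, which oxidises steroids and aromatic hydrocarbons, read 5.48 and 5.08, under the floor. The receptor gene Ahr itself read 8.25 and 8.43, its partner Arnt 8.58 and 8.57, and the receptor's repressor and target Ahrr 5.15 and 5.06, also under the floor. The Cyp1a1 promoter window is shown because the receptor acts through its core motif, with the same capitals.
Cyp1a1: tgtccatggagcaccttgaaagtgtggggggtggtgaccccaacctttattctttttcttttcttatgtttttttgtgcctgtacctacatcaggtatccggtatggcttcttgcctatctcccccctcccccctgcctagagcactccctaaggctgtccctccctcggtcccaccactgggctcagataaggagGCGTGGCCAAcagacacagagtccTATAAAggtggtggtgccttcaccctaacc
It lies at chr9:57697363-57697612 on the plus strand and holds 1 GCGTG core, directly followed by 1 short NFI motif on the other strand, and TATAAA. The receptor's well-known enhancer sites of this gene lie further upstream, outside this window.

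Small ratios above 0 were also found for Cyp2d22, Cyp2j9 and Cyp7b1. Cyp2d22, of the subfamily that oxidises many drugs, read 6.52 after papain and 6.10 after PBS. It reached the floor through its papain signal alone, so its ratio had to be above 0. Its PBS signal was under the background 95 percentile. Cyp2j9, an arachidonic acid hydroxylase, read 6.80 and 6.49. Its neighbour Cyp2j6, an epoxygenase of the same subfamily, read 8.66 and 8.67. Of the other xenobiotic enzymes, Cyp2e1, the ethanol oxidase, read 6.76 and 7.0, and Cyp3a13, the brightest of family 3, read 7.39 and 7.33. All of these differences were below 1.5-fold.

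Genes for sterol metabolism differed little. Cyp39a1, an oxysterol hydroxylase of the bile acid pathway, read 9.21 after papain and 9.54 after PBS, a ratio of -0.33. Cyp7b1, which hydroxylates oxysterols, read 6.96 and 6.81, and Cyp27a1, the mitochondrial sterol hydroxylase, read 6.96 and 6.82. Cyp46a1, the neuronal cholesterol hydroxylase, read 5.90 and 6.31. Of the 6 sterol and bile acid genes, 4 were above the floor, with 2 ratios on each side of 0. Cyp46a1 reached the floor through its PBS signal alone, so its ratio had to be below 0. The liver genes Cyp7a1 and Cyp8b1 of the same class were under the floor.

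Enzymes of retinoic acid, vitamin D and steroid hormones were dim. Cyp26b1, which degrades retinoic acid, read 6.79 after papain and 6.66 after PBS, and Cyp26a1 and Cyp26c1 were under the floor. None of the 3 vitamin D genes was above the floor, and the brightest, the hydroxylase Cyp2r1, read 4.89 and 5.84, with the papain signal under the background median. None of the 5 measured genes of steroid hormone synthesis was above the floor either. All 5 had ratios above 0, from 0.06 to 0.42, at signals near or under background, beside 10113 of all 22180 named genes above 0. The brightest, Cyp11a1, the enzyme that cleaves the cholesterol side chain, read 5.16 and 4.79, and its second row gave a ratio of 0.00. Cyp20a1, a P450 without an established substrate, read 7.60 and 7.90.

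Most genes of the large subfamilies 2c, 2d, 3a and 2j were under the floor. None of the 14 measured genes of subfamily 2c, 1 of the 9 of subfamily 2d, 1 of the 7 of subfamily 3a and 2 of the 7 of subfamily 2j were above the floor. Over all 89 genes with no floor, 5 were higher by 1.5-fold or more and 11 lower, where 5.38% and 4.34% of all named genes were. Of the 59 under the floor, 48 had a signal under the background median. Cyp2c50, with the highest ratio of all 89 genes, read 3.84 and 2.90, and no fold is given for such pairs. Cyp2c55 had 2 rows with ratios of opposite sign, -0.29 and 0.44. Among the hepatocyte markers, Alb read 4.51 and 3.89, and 4 of the 8 genes had both signals under the background median.

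Genes listed as partners of the P450 system, 17 of the measured ones being other oxidising enzymes, differed by small amounts. Of 54 listed genes 50 were measured, 43 of them above the floor. With no floor applied, 36 of the 50 had ratios below 0, or 72.0%. This stands beside 54.4% of all named genes and 64.1% of named genes above the floor. Of the 50, 6 were at least 1.5-fold lower and 0 higher, beside 4.34% and 5.38% of all named genes. The median ratio of the 50 was -0.19, beside -0.03 for all named genes and -0.10 for named genes above the floor. NADPH P450 reductase, the main electron donor, was not analysed here. Of the 8 measured genes of electron transfer, 4 had ratios below 0 and 4 above. Cyb5a, the cytochrome b5 gene, read 9.86 after papain and 10.09 after PBS, and Cyb5r3, its reductase, 10.45 and 10.86. In the opposite direction, Cyb5r4 of the same list read 7.99 and 7.71, a ratio of 0.27.

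Heme synthesis, which supplies the prosthetic group, had ratios below 0 in all 7 measured genes, all above the floor, with a median of -0.26, where 64.1% of genes above the floor were below 0 with a median of -0.10. Alas1, the rate-limiting enzyme of the pathway, read 10.73 after papain and 11.36 after PBS, a ratio of -0.62. Uros read 6.34 and 6.79, and Fech, which inserts the iron, 8.29 and 8.69. In heme breakdown, the inducible heme oxygenase Hmox1 read 6.80 and 7.45 and the biliverdin reductase Blvrb 7.33 and 8.06, both at least 1.5-fold lower. The constitutive heme oxygenase Hmox2 read 8.35 and 8.31.

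All 4 NFI genes, each above the floor, had ratios below 0, with a median of -0.41, beside the same 64.1% and -0.10. Nfix read 7.61 after papain and 8.26 after PBS and Nfic 7.60 and 8.23, both past 1.5-fold, where 4.35% of genes above the floor were, while Nfia read 8.53 and 8.73 and Nfib 10.60 and 10.74. Of the nuclear receptors and other sensors that induce P450 genes, 5 of 10 had ratios below 0 and none reached 1.5-fold. The constitutive androstane receptor gene Nr1i3, the inducer of Cyp2b10, read 5.10 and 5.04, under the floor in both arrays. Its heterodimer partner Rxra read 6.93 and 7.45. Ppara, the fatty acid sensor that induces Cyp4a genes in liver, read 6.14 and 6.54, and Vdr, the vitamin D receptor, 7.05 and 7.37.

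Other oxidising enzymes of the mucosa had ratios below 0 in 13 of 17 measured genes, with a median of -0.26. Over all named genes 54.4% were below 0 with a median of -0.03. The 15 of the 17 above the floor had a median of -0.28. Named genes above the floor had a median of -0.10, with 64.1% below 0. The aldehyde oxidases Aox4 and Aox3 read 6.01 and 6.87, and 10.51 and 11.02, after papain and PBS. The flavin monooxygenase Fmo1 read 9.68 and 10.18. Aox4 was the 1 gene of the list past 1.5-fold. It reached the floor through its PBS signal alone, so its ratio had to be below 0. The carbonyl reductase gene Cbr2, also a sustentacular marker, read 13.12 and 13.26.

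**Figure D4:**
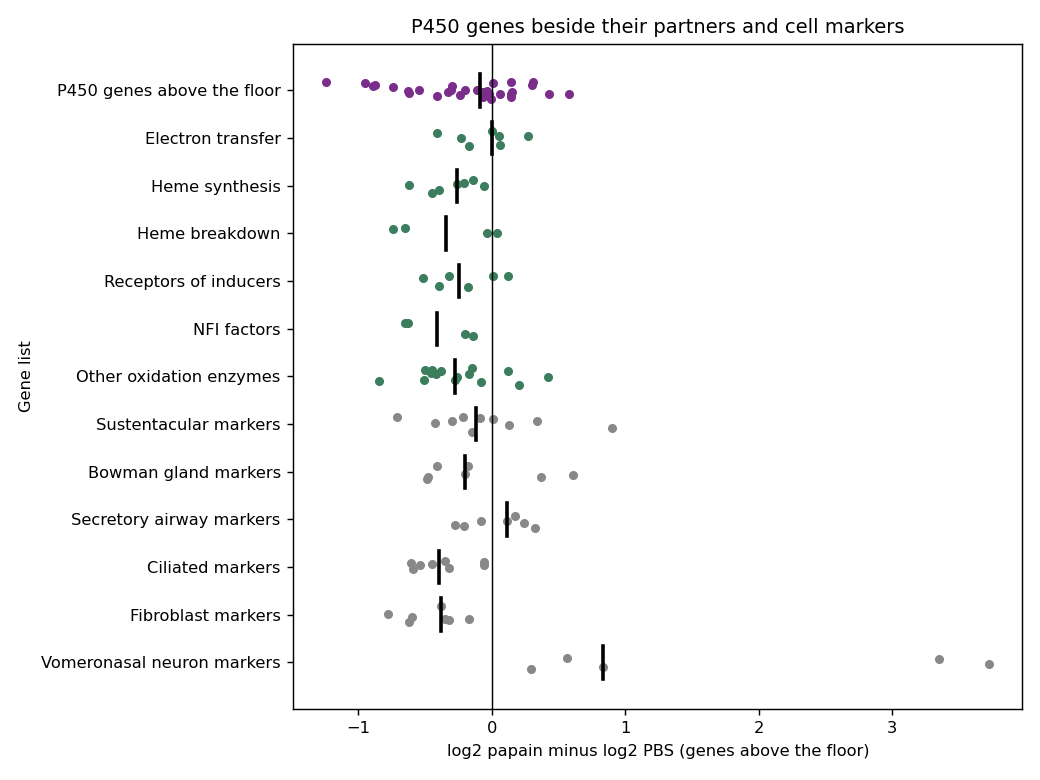
Ratios (log2 papain minus log2 PBS, horizontal axis) of single genes above the floor, each a point, for the P450 genes, for lists of partner genes and for markers of cell types. Vertical bars are list medians, and vertical scatter within a list has no meaning. The P450 genes spread from -1.24 to 0.58 around a median of -0.09, the heme synthesis genes all lie below 0, and the vomeronasal neuron markers reach 3.73.

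Markers of the cells that hold P450 enzymes and of other cells were read too, and their part in the P450 values was not tested. The 10 measured sustentacular markers, all above the floor, had a median of -0.12, with 6 ratios below 0. All named genes above the floor had a median of -0.10, with 64.1% below 0. The summed linear signal of the sustentacular markers was 22802 after papain and 24443 after PBS, a papain over PBS ratio of 0.933. Hes1 had the lowest ratio of the sustentacular list at -0.71, Sec14l3 had -0.43, and Cdhr1, a cadherin also known from sensory neurons, the highest at 0.90. The 7 Bowman gland markers, also above the floor, had a median of -0.20 and a summed ratio of 1.09. Aqp5 had -0.48, Sox10 -0.49 and Dmbt1 0.61, and Sox10 reached the floor through its PBS signal alone. The 8 secretory airway markers had a median of 0.02 and a summed ratio of 0.970, with Bpifa1 at -0.28, Muc5b at 0.32 and Tff2 at 0.24, and the defining club cell gene Scgb1a1 was under the background median in both arrays.

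Ciliated and fibroblast markers were lower throughout. Each of the 8 ciliated markers was lower in the papain array, with a median of -0.40 and a summed ratio of 0.782, and so was each of the 7 fibroblast markers, with a median of -0.38 and a summed ratio of 0.696. All of these markers were above the floor, where 64.1% of genes had ratios below 0. The summed ratios were 0.877 for the 8 olfactory neuron markers, 0.941 for the 4 basal cell markers, 0.910 for the 5 endothelial markers, 0.754 for the 4 adipocyte markers, all of them under the floor, 0.975 for the 8 hepatocyte markers and 1.19 for the 8 leukocyte markers. The 5 vomeronasal neuron markers had a summed ratio of 3.10, with S100z at 11.35 after papain and 7.62 after PBS. Calr4 and S100z were put in that list with their values known. Treatment and specimen cannot be told apart with 1 array each.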

How the data were processed

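Total RNA of nasal mucosa was hybridised to 2 arrays, 1 per group. The authors deposited 1 log2 signal per transcript cluster, the scale being read from the values (medians 5.70 and 5.64). The submitters' processing notes name Transcriptome Analysis Console 4.0, and how the values were background-corrected, summarised and normalised is not given in the sources read. Of 41345 rows, 23521 carried 1 gene symbol, 1814 several and 16010 none. All 89 P450 genes matched RefSeq gene IDs with 0 changed symbols. A further 15 rows with Cyp names were outside the symbol rule, 6 of them because they name several genes. Genes were counted at 2-fold, or 1.5-fold where stated. Named genes were the 15 brightest P450 genes, those past 2-fold, the 5 at each end of the ratios above the floor, the brightest of each class, 8 fixed names, and up to 3 per partner or marker list. Others named here were chosen after their values were seen. The members and lists were chosen with earlier results of these data known. The planned protein comparison was not run, and promoter windows were compared instead. Counting steps were tested on simulated data. There is no test and no SD between mice, and precision is limited by the number of arrays. Python 3.11.15, numpy 2.4.6, pandas 2.3.3, statsmodels 0.14.6 and matplotlib 3.10.9 were used. Alternatives were quantile normalization, centring, loess (span 0.3), averaged rows, other floors and folds, and rows naming several Cyp genes.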

Additional observations from a re-analysis of the deposited data

Results flagged for a closer look

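Cyp51, the lanosterol demethylase of cholesterol synthesis, has a symbol without a subfamily letter and so entered no comparison above. Its signal was 7.83 in the papain array against 7.49 in the PBS array and both were above the background 95 percentile of 6.40. It was set apart because it lay outside the genes compared and its papain signal exceeded the PBS signal by more than the probe set SD of 0.24. This single difference has no replicate check.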

How the results depend on the processing

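No paired analysis was possible because each group is 1 array. The count of P450 genes at least 2-fold lower, 1 above the floor, was 0 with a floor at the 75 percentile, 7 at 1.5-fold and 0 at 3-fold. The median ratio of those above the floor, -0.09, was -0.30 with the 75 percentile floor. The number with both signals above background was 23 at the 95 percentile and 41 at the median of genes of other tissues. The 1.5-fold counts under other settings were added after the data were seen. The 7 lower genes became 11 with no floor and 3 with the 75 percentile floor, and the 0 higher genes became 5 with no floor and 1, Cyp1a1, after quantile normalization, centring or loess. After loess 5 of the 7 remained, without Cyp4f15 and Cyp4f39, and after quantile normalization 6 remained, without Cyp4f39, while the share of all genes above the floor that were lower went from 4.35% to 2.32% and 3.32%. The cause was not tested, apart from the floor's own effect on which genes count. All 100 ratios of the 25 named P450 genes under quantile normalization, centring, loess and averaged rows moved by less than the probe set SD of 0.24. Signals near background limit what can be said of the 59 genes under the floor.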
